A study of Mus musculus with 13 samples.

Results

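ATP citrate lyase (Acly) makes cytosolic acetyl-CoA from citrate, and the genes described here are those for which loss of Acly changed expression differently after 24 h than after 3 h of lipopolysaccharide (LPS). They were found in bone marrow-derived macrophages (BMDMs) by testing, for each gene, the difference between the effect of genotype at 24 h and the effect of genotype at 3 h. Of 11942 genes tested, 1127 (9.44%) had an adjusted p under 0.05 for this difference, 533 of them (4.46%) with a higher and 594 (4.97%) with a lower effect at 24 h. Leaving out 33 genes of sterol and fatty acid synthesis, all with a lower effect at 24 h, 1094 genes remained. All adjusted p-values below come from edgeR's quasi-likelihood test with Benjamini-Hochberg adjustment over the 11942 genes.

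RNA was sequenced from BMDMs of female control mice (Acly fl/fl) and Acly M-KO mice. In the latter, Cre made under control of the Lyz2 gene deletes a floxed part of Acly in myeloid cells. Precursors from bone marrow were grown into macrophages in medium conditioned by L929 cells, and every culture then received LPS, so all 4 groups are LPS-treated. Control 3 h, Acly M-KO 3 h and Acly M-KO 24 h hold 3 libraries each and control 24 h holds 4, of which 1 was left out. The labels number the replicates but do not say whether they came from separate mice, and if they did not, the p-values measure a spread that may be technical.

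LPS is sensed by TLR4, which starts a quick wave of transcription through NF-κB and AP-1, followed by a wave through interferon β and its receptor. Many induced genes fall again within a day, while secondary genes, tolerance regulators and metabolic genes keep changing. Acetyl-CoA from Acly feeds cholesterol and fatty acid synthesis and protein acetylation. Cells that are short of sterol activate SREBP factors, which raise sterol synthesis and uptake, whereas amino acid shortage and other stresses act through the factor ATF4.

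Totals over all transcripts were 21274102 to 59577343 counts in the 12 libraries used, and control 24 h replicate 1 held 34467 counts. Control 24 h replicate 4, with the highest total, was followed by a library of 24645825 counts. All 8 macrophage markers were detected. Without Lyz2, described below, the other 7 summed to 7789 to 8246 CPM (counts scaled by library size) in the Acly M-KO and 7915 to 8161 CPM in the controls at 3 h, and to 5948 to 6259 and 6057 to 6374 CPM at 24 h, so that the sums overlapped at both times. Single markers differed within the sums, and 2 of the 7 had a time-dependent effect. At 3 h Adgre1 was higher in the Acly M-KO (1654 to 1774 against 1397 to 1476 CPM). Cd14 (1301 to 1412 against 1476 to 1560 CPM) and Fcgr1 (398 to 469 against 488 to 524 CPM) were lower. Mertk was lower at both times, with 145 to 165 against 192 to 194 CPM at 24 h. With Lyz2 the sums were lower in the Acly M-KO (11600 to 13190 CPM at 3 h and 7517 to 7688 at 24 h) than in the controls (16760 to 16930 and 10050 to 10590). Of the markers of 9 other cell types, none that could be tested had a time-dependent effect; Ly6g, Retnlg, Gzma, Mcpt8, Fcer1a, Hba-a1, Hba-a2 and Hbb-bs were listed at 0 in every library. Summed mast cell and basophil markers were 3.91 to 4.94 CPM in control and 7.23 to 9.83 CPM in Acly M-KO libraries at 3 h, and 1.25 to 1.43 and 1.80 to 2.25 CPM at 24 h. Endothelial markers summed to 26.9 to 31.9 and 34.1 to 38.0 CPM at 3 h and to 52.9 to 56.0 and 68.2 to 76.7 CPM at 24 h, and dendritic cell markers at 24 h to 2.05 to 2.77 and 3.62 to 4.14 CPM. Each of these sums came mostly from 1 gene. Kit measured 3.58 to 4.69 CPM in control and 6.8 to 9.47 CPM in Acly M-KO libraries at 3 h. Kdr measured 52.8 to 55.3 and 67.5 to 76.2 CPM at 24 h, and Ccr7 1.43 to 2.06 and 2.68 to 3.41 CPM. The sums therefore describe these genes rather than cell types. The part of these differences in the results was not tested. In RNA from whole cultures, fewer cells of a type and less RNA per cell cannot be told apart.

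The targeted gene was lower in every Acly M-KO library. Acly (chr11:100476353-100528000, minus strand) measured 175, 179 and 179 CPM in control and 63.4, 77.5 and 69.9 CPM in Acly M-KO libraries at 3 h. After 24 h the values were 188, 182 and 179.7 CPM and 50.02, 50.7 and 48.3 CPM. The control level was close at both times, and the level in the Acly M-KO was lower at 24 h. The log2 fold change went from -1.34 ± 0.06 (SE) to -1.88 ± 0.06, a difference of -0.55 ± 0.09 (adjusted p = 7.7e-05). Lyz2, the lysozyme gene that drives Cre, was also lower in the Acly M-KO at both times, with log2 fold changes of -0.97 and -1.41 (difference -0.44 ± 0.10, adjusted p = 0.012), and this difference lost its call with all 13 libraries and with either replicate block.

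The genes were sorted by where the effect of genotype lay. An effect at 1 time was called at an adjusted p under 0.05 and an absolute log2 fold change over 0.75, which 245 genes (2.05%) met at 3 h and 165 (1.38%) at 24 h. A gene was called reversed if its effect had opposite signs and an adjusted p under 0.05 at both times, and passed the fold threshold at 1 of them at least. An appeared gene was called at 24 h with an adjusted p of 0.05 or more at 3 h, a faded gene the other way around, and a resized gene kept its sign. Outside synthesis, 18 genes were reversed, 31 appeared, 63 faded and 16 were resized, together 128, and the other 966 passed the fold threshold at neither time or fell between the classes. The gene nearest to the limit inside was Uqcr11 (adjusted p = 0.0499) and the nearest outside Itpripl2 (adjusted p = 0.0504).

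**Figure D1:**
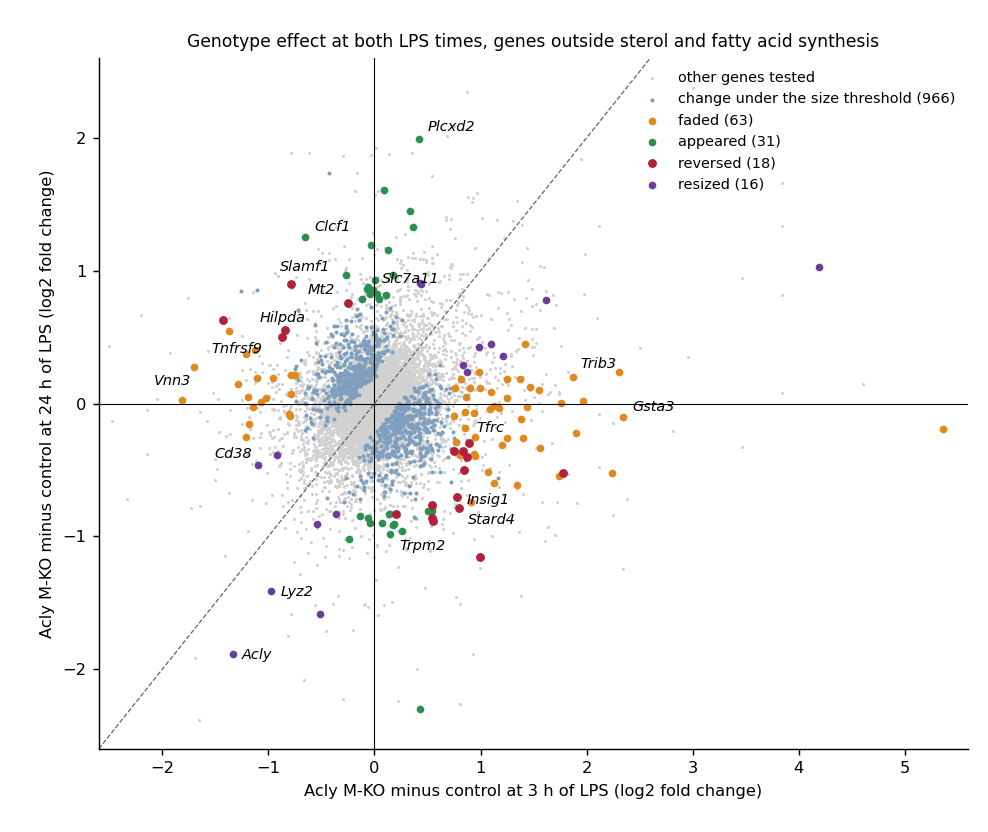
Each point is a gene, with the log2 fold change of Acly M-KO against control at 3 h on the x axis and at 24 h on the y axis; colours mark the classes among the 1094 genes outside sterol and fatty acid synthesis, grey points are other genes tested including synthesis genes, and on the dashed line both effects are equal. The 18 reversed genes lie to the upper left and lower right of the origin, the 63 faded genes along the horizontal axis and the 31 appeared genes along the vertical axis; 17 genes lie outside the axes.

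The reversed genes fell into 13 that were higher in the Acly M-KO at 3 h and lower at 24 h, and 5 that were lower at 3 h and higher at 24 h. Among the 13 were genes of sterol handling and lipid synthesis that are not in the list of sterol and fatty acid synthesis. Stard4, a carrier of cholesterol between membranes, measured 31.9, 31.9 and 29.9 CPM in control and 54.5, 49.2 and 59.5 CPM in Acly M-KO libraries at 3 h, and 42.6, 39.1 and 39.7 CPM and 20.9, 25.1 and 24.3 CPM at 24 h. The groups did not overlap at either time, and their order turned around. Its log2 fold changes were 0.80 ± 0.08 and -0.79 ± 0.08, with a difference of -1.59 ± 0.12 (adjusted p = 3.2e-11). Insig1 (chr5:28071363-28078662, plus strand), which holds the SREBP complex in the endoplasmic reticulum when sterol is plentiful and is itself an SREBP target, measured 123, 118 and 117 CPM in control and 195, 209.5 and 209.9 CPM in Acly M-KO libraries at 3 h. At 24 h it measured 77.9, 74.6 and 79.6 CPM and 43.97, 48.9 and 50.1 CPM. Control and Acly M-KO libraries were again apart at both times, and the difference of -1.48 ± 0.08 had an adjusted p of 1.7e-13.

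Scarb1, a receptor for high-density lipoprotein, measured 60.8, 65.2 and 64.4 CPM in control and 100.02, 107 and 113 CPM in Acly M-KO libraries at 3 h, and 58.7, 53.6 and 53.4 and 39.5, 45.8 and 43.8 CPM at 24 h. Its effect was larger at 3 h (log2 fold change 0.75) than at 24 h (-0.36), with a difference of -1.11 ± 0.10 (adjusted p = 1.4e-09). Aacs, which makes acetoacetyl-CoA for lipid synthesis from ketone bodies, went from 0.87 to -0.40. For Mid1ip1, an activator of acetyl-CoA carboxylase, the fold changes were 0.54 and -0.86. Pcyt2, which makes CDP-ethanolamine for phosphatidylethanolamine, had fold changes of 0.83 and -0.36. In Aacs, Mid1ip1 and Pcyt2 the groups were apart at both times, and the differences had adjusted p-values of 4.7e-06, 1.8e-08 and 3.8e-07.

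Other reversed genes act outside sterol handling. Tfrc (chr16:32608920-32632794, plus strand), the transferrin receptor that brings iron into cells, measured 282, 290.5 and 271 CPM in control libraries and 475, 576 and 514 CPM in Acly M-KO libraries at 3 h, then 57.02, 54.1 and 59.5 CPM and 40.4, 52.5 and 46.3 CPM at 24 h. In both genotypes the level was far lower at 24 h, and the excess in the Acly M-KO at 3 h was replaced by a small deficit (difference -1.19 ± 0.11, adjusted p = 1.9e-07); the call was lost with all 13 libraries. C5ar1 (chr7:16246743-16259540, minus strand), the receptor for the complement fragment C5a, measured 672, 636 and 640.1 CPM in control and 711, 747 and 778 CPM in Acly M-KO libraries at 3 h. At 24 h the values were 88.7, 84.5 and 90.8 CPM and 55.3, 46.4 and 46.8 CPM. The small excess at 3 h (log2 fold change 0.20) turned into a clear deficit (-0.83), with an adjusted p of 2.4e-10 for the difference. Aldoc, an aldolase of glycolysis, went from 0.54 to -0.76, and Cenpi, a centromere protein, from 0.55 to -0.88. Plekhg3, a guanine nucleotide exchange factor, went from 0.84 to -0.50 at levels under 10 CPM.

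The remaining 2 of the 13 overlap synthesis genes. The antisense RNA 4930483K19Rik shares exon sequence with Lss on the other strand and had log2 fold changes of 1.78 and -0.52. The entry of the microRNA gene Mir5114 lies inside Scd2 on the same strand and had fold changes of 0.99 and -1.16. Scd2 itself had 1.00 and -1.24, and Lss 1.82 and -0.53. Because Mir5114 and Scd2 lie on the same strand, no strand setting would separate their reads. For 4930483K19Rik and Lss the strand setting of the counting is not given in the sources used here, so their reads cannot be told apart either.

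**Figure D2:**
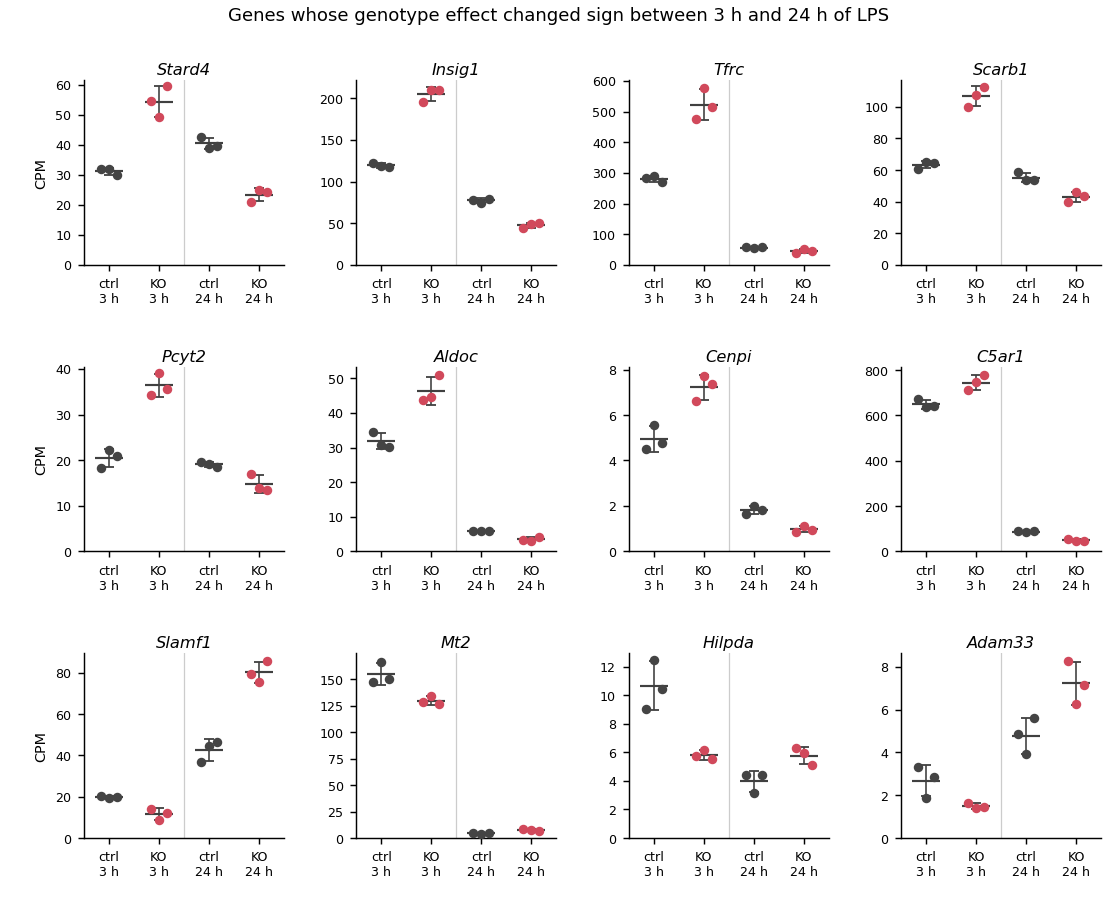
CPM (linear axes from 0) of 12 reversed genes in each library of the 4 groups (ctrl, control; KO, Acly M-KO); points are libraries, lines the mean and bars the SD over 3 libraries. From Stard4 to C5ar1 the Acly M-KO libraries lie above the controls at 3 h and below them at 24 h, and from Slamf1 to Adam33 the order is the opposite. The change of sign is part of the definition of the class.

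Of the 5 genes that were lower first and higher later, Slamf1 (chr1:171767127-171801184, plus strand) encodes a surface receptor of the SLAM family that also senses Gram-negative bacteria. At 3 h it measured 20.3, 19.4 and 19.9 CPM in control and 14.2, 8.73 and 11.9 CPM in Acly M-KO libraries, and at 24 h 36.7, 44.8 and 46.3 CPM and 79.2, 75.6 and 85.7 CPM. All 3 Acly M-KO values were below the controls at 3 h and above them at 24 h. The log2 fold changes were -0.79 ± 0.13 and 0.90 ± 0.09, with a difference of 1.69 ± 0.16 (adjusted p = 3.8e-07).

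Mt2, a metallothionein that binds zinc, measured 147, 167 and 151 CPM in control and 129, 134 and 127 CPM in Acly M-KO libraries at 3 h, and 4.98, 3.69 and 4.44 CPM and 8.42, 7.34 and 6.5 CPM at 24 h. Its level was far lower at 24 h in both genotypes, and the order of the groups was reversed without overlap (difference 1.01 ± 0.14, adjusted p = 9.3e-06). Hilpda, which inhibits lipolysis at lipid droplets, measured 9.06, 12.5 and 10.5 CPM in control and 5.77, 6.16 and 5.5 CPM in Acly M-KO libraries at 3 h, and 4.44, 3.13 and 4.39 CPM and 6.3, 5.94 and 5.1 CPM at 24 h. In the controls Hilpda was lower at 24 h than at 3 h, whereas the Acly M-KO levels lay in the same range at both times, and the difference was 1.38 ± 0.23 (adjusted p = 0.00013). Adam33, a membrane metalloprotease, had log2 fold changes of -0.84 and 0.56. Acpp, an acid phosphatase, had -1.42 and 0.63, at levels under 5 CPM, and its call was lost without Acly M-KO 3 h replicate 2 (adjusted p = 0.0544).

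Listed genes of sterol uptake and its regulation, which include the lipid synthesis enzyme Aacs, were called often. Those called had the direction of Stard4 and Insig1. Of 13 such genes tested, 7 (53.8%) had a time-dependent effect, against 9.44% of all genes tested. All 7 had a lower effect at 24 h, among them Aacs, Insig1, Srebf1, Srebf2, Stard4 and Tmem97. The median over all 13 went from 0.46 at 3 h to -0.33 at 24 h, against medians near 0 over all genes tested. Srebf2, the SREBP factor for sterol genes, had log2 fold changes of 0.46 at 3 h and -0.33 at 24 h, and Srebf1, the factor for fatty acid genes, 0.36 and -0.55. Neither Scap, the SREBP escort (0.07 and -0.04), nor Npc1, which exports cholesterol from lysosomes (0.01 and 0.15), passed the test.

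LXR receptors are activated by oxysterols and raise cholesterol export. Of 11 listed targets, 4 (36.4%) had a time-dependent effect, against 9.44% of all genes tested. At an adjusted p under 0.05 with no fold threshold, 2 were higher and 7 lower in the Acly M-KO at 3 h. At 24 h 1 was higher and 9 were lower. Of all genes tested, 8.7% were higher and 6.76% lower at 3 h, and 7.67% and 5.84% at 24 h. The medians over the 11 were -0.31 and -0.51. Apoc2, an activator of lipoprotein lipase, appeared at 24 h (7.44, 6.68 and 8.02 CPM in control and 4.8, 3.54 and 3.57 CPM in Acly M-KO libraries, log2 fold change -0.91, and 0.18 at 3 h), in exons that it shares with Gm44805. Lpcat3, which puts polyunsaturated chains into phospholipids, went from 0.30 to -0.39 (adjusted p of the difference 2.1e-05), and Mylip, a ubiquitin ligase, from -0.31 to 0.12 (adjusted p = 0.017). The call of Mylip was lost without Acly M-KO 3 h replicate 1 or control 3 h replicate 3, with adjusted p up to 0.0558. Srebf1 stands in both lists. The cholesterol exporter Abca1 had log2 fold changes of -0.56 and -0.51 and Abcg1 -0.68 and -0.54, with adjusted p-values of the difference of 0.9 and 0.29; both were chosen after their values were seen.

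Of 42 interferon-response genes tested, 18 (42.9%) had a time-dependent effect, against 9.44% of all genes tested. The effect at 24 h was higher in 16 of them (Cmpk2, Gbp2, Gbp3, Gbp5, Ifi205, Ifit1, Igtp, Iigp1, Isg15, Mx1, Mx2, Oas2, Oasl1, Rsad2, Stat2 and Trim30a) and lower in 2 (Dhx58 and Irf7). No member passed the fold threshold at either time, and the medians of all 42 were -0.08 at 3 h and -0.01 at 24 h. With no fold threshold, 13 were lower and 2 higher in the Acly M-KO at 3 h, and 3 lower and 11 higher at 24 h, at an adjusted p under 0.05. Of all genes tested, 6.76% were lower and 8.7% higher at 3 h by this criterion, and 5.84% lower and 7.67% higher at 24 h. The changes were thus small, between -0.51 and 0.51 on the log2 scale at 3 h and between -0.36 and 0.53 at 24 h.

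Promoters of these genes often carry the interferon-stimulated response element, which the complex of STAT proteins and IRF9 binds. The core GAAANNGAA was searched on both strands between 250 bases before and 50 bases after the start in RefSeq sequence of GRCm38.p6. It was found in 11 of 15 promoters (73.3%) of the 13 interferon genes above that could be matched, in 7.33% of 12149 promoters of genes tested and in 8.56% of all 32851 promoters. The 100 bases before the start of 4 such genes are shown because these genes differ in the time of the effect: at an adjusted p under 0.05 it was present at both times with opposite signs in Igtp, at 24 h in Gbp3 and at 3 h in Isg15 and Ifit1. Each is written 5′ to 3′ in the direction of the gene with core matches in capitals, which run together where they overlap.
Igtp, chr11:58199456-58199555, plus strand: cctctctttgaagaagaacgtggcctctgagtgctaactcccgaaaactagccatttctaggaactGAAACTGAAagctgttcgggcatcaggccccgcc
Gbp3, chr3:142559944-142560043, plus strand: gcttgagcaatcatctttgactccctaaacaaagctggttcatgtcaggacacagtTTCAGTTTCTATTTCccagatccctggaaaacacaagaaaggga
Isg15, chr4:156200819-156200918, minus strand: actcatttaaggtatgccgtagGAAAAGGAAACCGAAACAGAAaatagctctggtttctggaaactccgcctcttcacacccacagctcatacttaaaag
Ifit1, chr19:34640789-34640888, plus strand: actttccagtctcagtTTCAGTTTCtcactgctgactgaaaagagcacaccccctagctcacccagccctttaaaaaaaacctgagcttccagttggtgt
The match began 34 bases before the start in Igtp and 84 bases before it in Ifit1, and Gbp3 and Isg15 held 2 and 3 overlapping matches. A match of letters is a description and does not show that a factor was bound. Because the list was chosen as interferon-response genes, a high share of the core was likely from the start. The share in listed genes without a time-dependent effect was not computed, so the motif cannot be tied to the time of the effect.

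Igtp, an immunity-related GTPase that acts on vacuoles of pathogens, measured 620.3, 605 and 611 CPM in control and 547, 496 and 529.7 CPM in Acly M-KO libraries at 3 h, and 327, 330.1 and 343 CPM and 424, 438 and 419 CPM at 24 h. The groups were apart at both times and in opposite order (log2 fold changes -0.22 and 0.36, adjusted p of the difference 6.4e-07). Its exons overlap those of Irgm2 on the same strand. Gbp3, a guanylate-binding protein, measured 686, 631 and 645 CPM in control and 610.5, 605 and 582 CPM in Acly M-KO libraries at 3 h and 567, 548 and 598 CPM and 688, 756 and 742 CPM at 24 h (adjusted p of the difference 3.2e-05). Mx2, a relative of the antiviral GTPase Mx1 whose gene GENCODE lists as a polymorphic pseudogene and whose counts are those of a non-coding RefSeq transcript, was level at 3 h (361, 343 and 342 CPM in control and 358, 365 and 324 CPM in Acly M-KO libraries) and higher in the Acly M-KO at 24 h (124, 121 and 143 and 184, 187 and 189 CPM). Others showed the effect at 3 h: Isg15, a ubiquitin-like modifier, went from -0.42 to -0.01, Ifi205 from -0.51 to -0.10 and Iigp1 from -0.50 to -0.05. Rsad2, the antiviral enzyme viperin, had means of 20795 CPM in control and 19775 CPM in Acly M-KO libraries at 3 h and 12872 and 16716 CPM at 24 h, and went from -0.07 to 0.38.

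The exceptions had a lower effect at 24 h. Irf7, the factor that amplifies interferon production, went from 0.37 to -0.04 (adjusted p = 0.043), and Dhx58, a regulator of RNA sensing, from near 0 to -0.36 (adjusted p = 0.0076). The gene of interferon β itself, Ifnb1, measured 3.66, 2.91 and 3.43 CPM in control and 6.63, 13.7 and 7.36 CPM in Acly M-KO libraries at 3 h, and 2.25, 2.27 and 2.22 and 4.24, 2.67 and 2.997 CPM at 24 h. Its log2 fold changes of 1.49 and 0.56 differed with an adjusted p of 0.12, which misses the threshold; Ifnb1 was chosen after its values were seen.

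**Figure D3:**
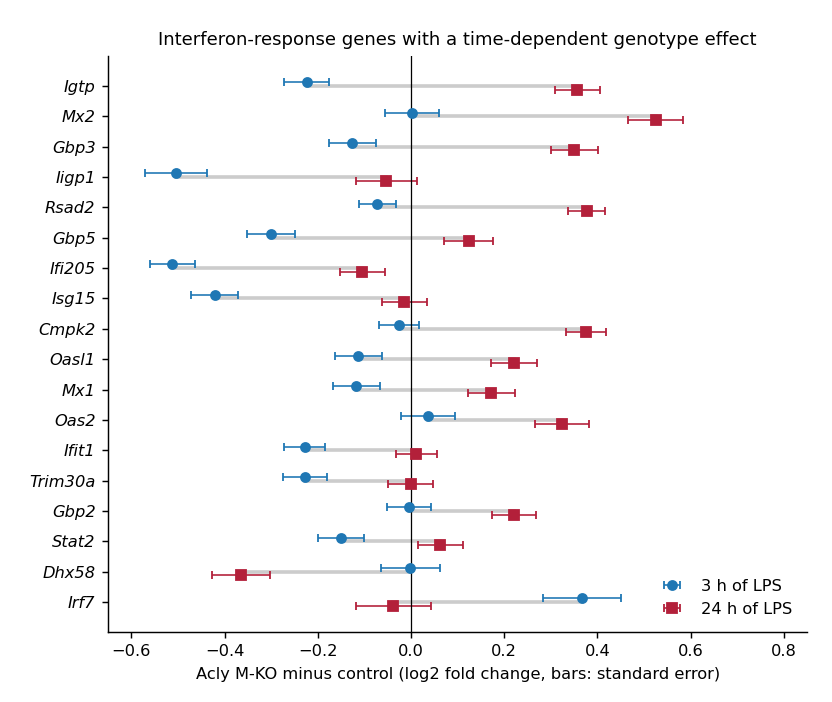
Log2 fold change of Acly M-KO against control at 3 h (circles) and 24 h (squares) of LPS, with standard errors, for the 18 interferon-response genes with a time-dependent effect, ordered by the difference. In 16 of them the square lies to the right of the circle, and no symbol lies beyond 0.75 in either direction.

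Surface receptors of the SLAM and TNF receptor families and costimulatory molecules mostly had the direction of Slamf1 where they were called. Of 26 tested, 9 (34.6%) had a time-dependent effect, against 9.44% of all genes tested. The effect at 24 h was higher in 8 of them (Cd274, Cd40, Cd83, Cd86, Ly9, Slamf1, Tnfrsf1b and Tnfrsf9) and lower in Tnfsf15. The median over the 26 went from 0.01 to 0.21, and with all 13 libraries 4 of the 26 were called. Cd40, which receives help from T cells, measured 849.7, 841 and 800.2 CPM in control and 893, 776 and 871 CPM in Acly M-KO libraries at 3 h, and 145, 133 and 143 and 187, 200.2 and 189.6 CPM at 24 h. The groups overlapped at 3 h only (adjusted p of the difference 0.0004). Cd86, a ligand of CD28, went from -0.18 to 0.28, and Cd274, which encodes PD-L1, from -0.04 to 0.24. Tnfrsf9, the receptor 4-1BB, belonged to the faded genes: it measured 6.4, 6.99 and 5.27 CPM in control and 2.93, 1.76 and 2.59 CPM in Acly M-KO libraries at 3 h, and 0.956, 0.924 and 0.408 and 0.873, 0.601 and 1.4 CPM at 24 h. Its call was lost without Acly M-KO 24 h replicate 3 or control 24 h replicate 4, with adjusted p up to 0.0779.

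Of 38 cytokines and chemokines tested, 18 were higher and 3 lower in the Acly M-KO at 3 h at an adjusted p under 0.05, and 17 higher and 3 lower at 24 h, against 8.7% and 6.76% of all genes tested at 3 h and 7.67% and 5.84% at 24 h. The medians over all 38 were 0.29 and 0.30. Of the 38, 7 (18.4%) had a time-dependent effect, against 9.44% of all genes tested. The effect at 24 h was higher in 4 of them (Cxcl10, Cxcl11, Il15 and Il1rn) and lower in 3 (Cxcl9, Osm and Pf4). With all 13 libraries 4 of the 38 were called, and with no filter on low counts 11. Il1rn, the natural antagonist of the interleukin 1 receptor, measured 1213, 1216 and 1245 CPM in control and 1091, 1152 and 1056 CPM in Acly M-KO libraries at 3 h. At 24 h it measured 752, 831 and 790.02 CPM and 1188, 1209.8 and 1365 CPM. It was lower at 24 h than at 3 h in the controls, while the Acly M-KO libraries were higher at 24 h (log2 fold changes -0.16 and 0.67, adjusted p of the difference 3.3e-09). Of the ligands of CXCR3, Cxcl10 (0.01 and 0.44) had a higher effect at 24 h and Cxcl9 (0.09 and -0.55) a lower one. Cxcl11, a relative that is likewise listed as a polymorphic pseudogene and counted on a non-coding transcript, had a higher effect at 24 h (-0.55 and 0.10). The call of Cxcl9 was lost in 7 of the 12 fits that left out 1 library. Osm, oncostatin M, measured 3.74, 4.16 and 5.94 CPM in control and 14.03, 14.6 and 13.8 CPM in Acly M-KO libraries at 3 h, and 6.28, 6.18 and 7.17 and 10.9, 11.5 and 11.9 CPM at 24 h, and was thus higher in the Acly M-KO at both times but less so at 24 h (difference -0.84 ± 0.20).

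Scavenger and myeloid receptors moved in both directions: of 32 tested, 12 (37.5%) had a time-dependent effect, against 9.44% of all genes tested. The effect at 24 h was higher in 5 of them and lower in 7. The 3 chains of complement C1q, which opsonizes debris, were lower in the Acly M-KO at both times and more so at 24 h, with log2 fold changes of -0.55 and -0.91 for C1qa, -0.27 and -0.56 for C1qb and -0.21 and -0.68 for C1qc. Cd5l, a secreted protein of tissue macrophages, went from -0.14 to -0.54, and Stab1, a scavenger receptor, from 0.46 to -0.15. The chemokine receptor Ccr1 had the opposite time course, measuring 193, 205 and 219 CPM in control and 127, 134 and 134 CPM in Acly M-KO libraries at 3 h, and 14.95, 18.3 and 15.9 and 14.97, 15.7 and 18.2 CPM at 24 h. Its effect of -0.65 at 3 h was near 0 at 24 h, where the groups overlapped (adjusted p of the difference 0.00017). S1pr1, the sphingosine 1-phosphate receptor that guides cell egress, measured 21.2, 22.1 and 20.7 CPM in control and 8.87, 9.61 and 9.14 CPM in Acly M-KO libraries at 3 h, and 15.02, 15.6 and 15.9 and 13.04, 13.5 and 12.7 CPM at 24 h. The deficit was smaller at 24 h (-1.21 and -0.25), although the groups were still apart.

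Among the appeared genes, 18 were higher and 13 lower in the Acly M-KO at 24 h, with median log2 fold changes of 0.95 and -0.90. Their medians at 3 h were 0.01 and 0.15, and small values there follow from the definition of the class. Plcxd2, a phosphatidylinositol-specific phospholipase, had the largest fold change among those that were higher: it measured 1.33, 2.36 and 2.26 CPM in control and 2.58, 2.86 and 2.51 CPM in Acly M-KO libraries at 3 h, and 10.5, 13.1 and 9.98 CPM and 48.4, 37.4 and 45.5 CPM at 24 h (log2 fold changes 0.42 and 1.99, adjusted p of the difference 0.00043). The level was higher at 24 h in both genotypes and 3.91-fold higher in the Acly M-KO by the ratio of means. Vcan, the matrix proteoglycan versican, measured 59.8, 50.02 and 61.6 CPM in control and 67.4, 90.2 and 58.01 CPM in Acly M-KO libraries at 3 h and 16.3, 14.99 and 14.7 and 42.6, 46.5 and 35.9 CPM at 24 h. It was lower at 24 h than at 3 h, but less so in the Acly M-KO (difference 1.12 ± 0.23, adjusted p = 0.012). Il17rd, a receptor that restrains growth factor signalling, went from -0.04 to 1.19, Mreg, a protein of melanosome and phagosome traffic, from -0.27 to 0.97 and Clcf1, a cytokine of the interleukin 6 family, from -0.65 to 1.26. These calls were lost in 2, 4 and 3 of the 12 fits that left out 1 library. Mir6367, the entry of a microRNA gene, went from 0.09 to 1.61, and its call was lost with DESeq2.

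Slc7a11 (chr3:49892526-50443614, minus strand), the cystine carrier that supplies glutathione synthesis, was the 1 member of both the ATF4 and the NRF2 lists to appear at 24 h. It measured 58.6, 59.8 and 62.5 CPM in control and 71.4, 46.5 and 61.5 CPM in Acly M-KO libraries at 3 h, and 91.3, 114 and 109.8 CPM and 195, 188 and 187 CPM at 24 h. The groups overlapped at 3 h and were far apart at 24 h, with a difference of 0.87 ± 0.17 (adjusted p = 0.009). Its promoter is shown because ATF4 acts through the composite element TGATGNAA, which was found there on both strands and in 2.39% of the promoters of genes tested; capitals mark the matches in the 100 bases before the start.
Slc7a11, chr3:50443614-50443713, minus strand: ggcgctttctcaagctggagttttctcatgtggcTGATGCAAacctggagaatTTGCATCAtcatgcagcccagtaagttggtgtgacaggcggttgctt
The matches began 66 and 47 bases before the start. The element was in 2 of 9 promoters (22.2%) of the 8 listed ATF4 targets with a time-dependent effect. Besides Slc7a11 this was Trib3, whose effect was lower at 24 h, so the element does not set Slc7a11 apart.

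On the lower side at 24 h, Cox7a1, a subunit of cytochrome oxidase, had the largest fold change (-2.30) at levels under 2 CPM, with 0.41, 0.426 and 0.485 CPM in control and 0, 0.2 and 0.0638 CPM in Acly M-KO libraries. Trpm2, a calcium channel opened by ADP-ribose, measured 7.32, 7.77 and 7.45 CPM in control and 8.09, 8.58 and 8.25 CPM in Acly M-KO libraries at 3 h, and 2.53, 2.13 and 2.5 and 1.06, 1.47 and 1.15 CPM at 24 h. It went from 0.15 to -0.98 (adjusted p of the difference 0.0059). Cd300e, an activating receptor of myeloid cells, was higher at 24 h than at 3 h in both genotypes, at 26.4, 20.1 and 26.1 CPM in control and 12.5, 14.7 and 14.6 CPM in Acly M-KO libraries, and its level at 3 h was near 1 CPM. Ido2, an enzyme of tryptophan breakdown, went from 0.26 to -0.96, and Atg9b, an autophagy protein whose exons overlap Nos3 on the other strand, from 0.51 to -0.81. The calls of Cox7a1, Cd300e, Ido2 and Atg9b were lost in 6, 8, 7 and 8 of the 12 fits that left out 1 library, and that of Trpm2 in none. Mcm3 and Mcm5, subunits of the helicase of DNA replication, were lower in the Acly M-KO at 24 h, at 12.8, 13.9 and 11.9 CPM in control and 6.3, 8.14 and 6.82 CPM in Acly M-KO libraries for Mcm3 and 7.78, 6.68 and 5.64 and 2.99, 4.005 and 3.95 CPM for Mcm5. In the cell cycle list 5 of 49 genes had a time-dependent effect (10.2%), near the share of all genes, and the calls of Mcm3 and Mcm5 were lost in 2 and 9 of the 12 fits.

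**Figure D4:**
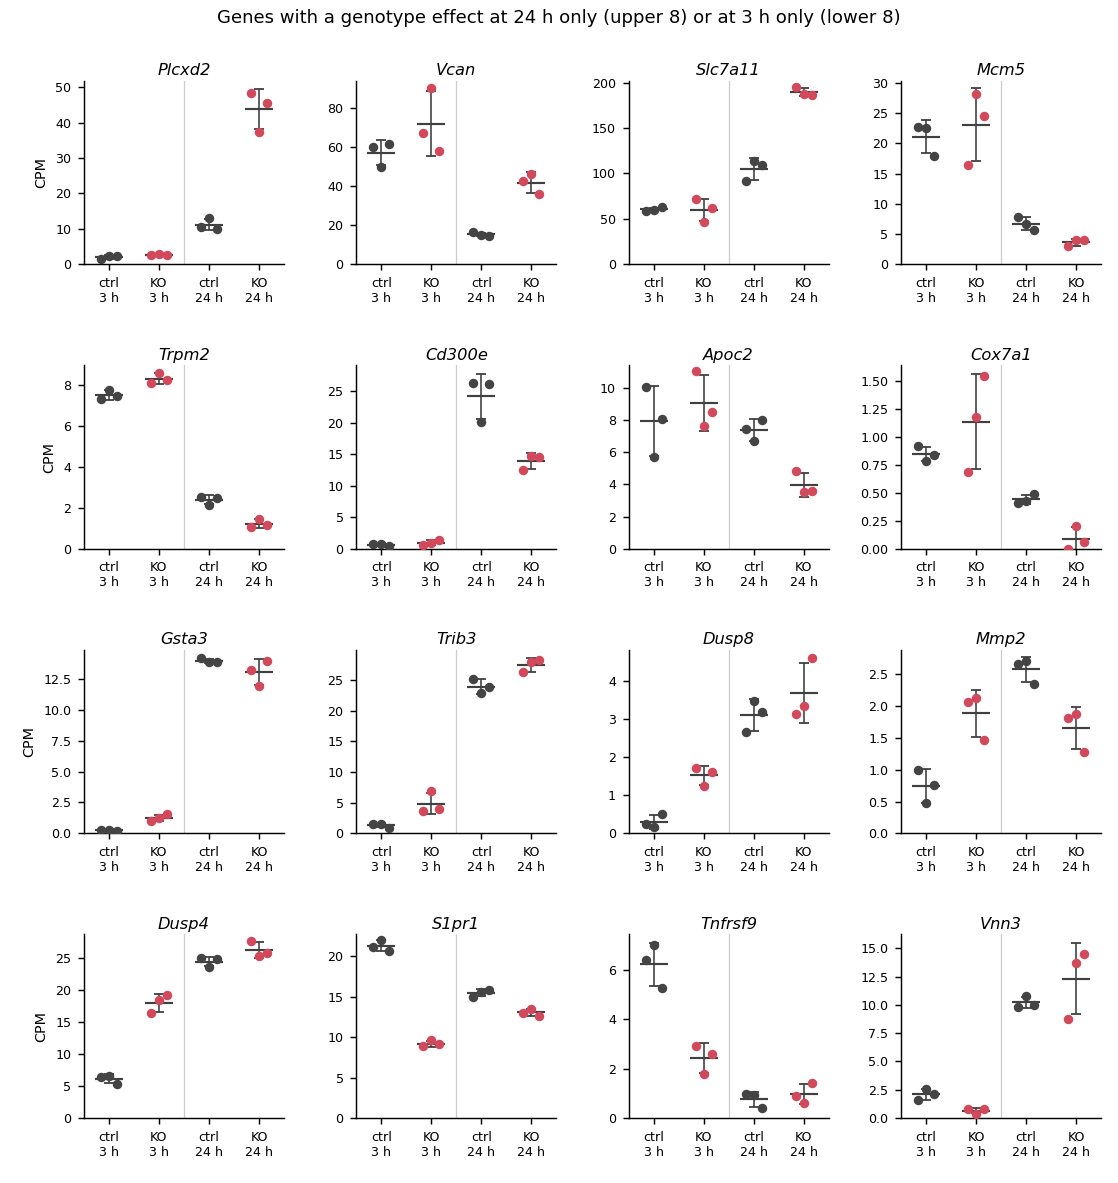
CPM (linear axes from 0) in each library for 8 appeared genes (upper 2 lines of panels) and 8 faded genes (lower 2 lines); points are libraries, lines the mean and bars the SD over 3 libraries. The groups are apart at 24 h in the upper and at 3 h in the lower panels, and control and Acly M-KO overlap or lie closer at the other time. Most of these genes were chosen with libraries apart at the time of the effect, so this separation follows from the choice.

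The faded genes were the largest class, 44 higher and 19 lower in the Acly M-KO at 3 h, with medians of 1.19 and -1.13 at 3 h and -0.07 and 0.07 at 24 h. Large medians at 3 h and small ones at 24 h follow from the definition of the class. Of the 44, 16 had no group mean above 5 CPM, as had 5 of the 19. Of the faded genes, Trib3, Phgdh and Sesn2 belong to the ATF4 programme, which raises amino acid uptake and synthesis. The counts of this list also hold genes outside the faded class, such as Atf4, Atf5 and Mthfd2. Of 18 listed ATF4 targets, 8 (44.4%) had a time-dependent effect, against 9.44% of all genes tested. The effect at 24 h was lower in 7 of them (Atf4, Atf5, Mthfd2, Phgdh, Sesn2, Shmt2 and Trib3), with Slc7a11 as the exception described above. The median over the 18 was 0.63 at 3 h and 0.05 at 24 h.

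Trib3, a pseudokinase that feeds back on ATF4, measured 1.5, 1.57 and 0.921 CPM in control and 3.62, 6.82 and 4.05 CPM in Acly M-KO libraries at 3 h, and 25.1, 22.8 and 23.8 CPM and 26.2, 27.8 and 28.2 CPM at 24 h. Both genotypes were far higher at 24 h, where the groups lay close (log2 fold changes 1.87 and 0.20, adjusted p of the difference 0.00013). Sesn2, a leucine sensor that restrains mTORC1, measured 4.41, 6.05 and 3.93 CPM in control and 7.66, 11.4 and 9.47 CPM in Acly M-KO libraries at 3 h, and 36.7, 38.1 and 35.8 and 42.1, 36.1 and 41.6 CPM at 24 h. Its effect went from 0.99 to 0.12. Phgdh, the first enzyme of serine synthesis, went from 1.13 to -0.02 and Mthfd2, of the mitochondrial folate pathway, from 0.74 to -0.21, and these calls were lost in 8 and 9 of the 12 fits that left out 1 library. Atf4 itself rose less, with 0.34 at 3 h and 0.05 at 24 h (adjusted p of the difference 0.014). Gdf15, a stress-induced cytokine, had a similar course outside the list, measuring 9.81, 10.1 and 9.63 CPM in control and 36.9, 24.7 and 39.3 CPM in Acly M-KO libraries at 3 h and 163, 178 and 153 and 168, 159.6 and 166 CPM at 24 h; it was chosen after its values were seen.

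Gsta3, a glutathione transferase, was also among the faded genes that were higher at 3 h: it measured 0.249, 0.314 and 0.167 CPM in control and 1.03, 1.25 and 1.54 CPM in Acly M-KO libraries at 3 h, and 14.1, 13.9 and 13.9 CPM and 13.2, 11.9 and 13.96 CPM at 24 h. The effect of 2.34 ± 0.41 at 3 h thus lay at levels under 2 CPM, and at 24 h, at a higher level, it was -0.10 ± 0.11 (adjusted p of the difference 0.00024). Dusp4 and Dusp8, phosphatases that switch off MAP kinases, went from 1.55 to 0.10 and from 2.31 to 0.24. For Dusp4 the levels were 6.4, 6.6 and 5.36 CPM in control and 16.4, 18.3 and 19.2 CPM in Acly M-KO libraries at 3 h, and 24.9, 23.5 and 24.7 and 27.5, 25.2 and 25.8 CPM at 24 h (adjusted p of the difference 2.1e-08). Ctsk, the collagen-degrading protease cathepsin K, measured 4.07, 2.83 and 3.27 CPM in control and 8.01, 11.01 and 8.33 CPM in Acly M-KO libraries at 3 h, with overlap of the groups at 24 h (4.1, 3.34 and 5.21 and 5.43, 3.34 and 4.14 CPM). Mmp2, a gelatinase, went from 1.35 to -0.61, and Abhd15, an α/β-hydrolase whose exons overlap Taok1 on the other strand, from 2.24 to -0.53. The calls of Dusp8, Mmp2 and Abhd15 were lost with DESeq2. H1f10, a linker histone, and Ccdc40, a protein of cilia, had effects of 1.74 and 1.90 at 3 h at levels under 2 CPM, and their calls were lost in 8 and 9 of the 12 fits that left out 1 library. The antisense RNA Acss2os overlaps the synthesis gene Acss2 and shared its course (1.96 and 0.02, against 1.55 and 0.00); it was chosen after its values were seen, like Cebpd, an acute-phase transcription factor (34.5, 27.2 and 29.6 CPM in control and 68.9, 66.03 and 70.7 CPM in Acly M-KO libraries at 3 h, and 6.42, 8.24 and 7.3 and 6.99, 6.41 and 8.03 CPM at 24 h).

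Faded genes that were lower at 3 h included Vnn3, a pantetheinase, which measured 1.58, 2.59 and 2.09 CPM in control and 0.775, 0.367 and 0.809 CPM in Acly M-KO libraries at 3 h, and 9.83, 10.8 and 10.03 and 8.73, 13.8 and 14.5 CPM at 24 h. Its log2 fold changes were -1.70 ± 0.38 and 0.27 ± 0.15, and the groups overlapped at 24 h (adjusted p of the difference 0.0018). Zbtb12, a zinc finger protein, went from -1.29 to 0.14, Bbs1, a subunit of the ciliary BBSome, from -1.21 to 0.37, Kif1a, a kinesin, from -1.11 to 0.19 and Fam217b from -1.13 to 0.40. All of these stayed under 6 CPM in every library, and the calls of Bbs1, Kif1a and Fam217b were lost in 6, 5 and 7 of the 12 fits that left out 1 library and, like that of Zbtb12, with DESeq2.

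Genes whose effect kept its sign but changed in size numbered 16. Cd38, an enzyme that consumes NAD, measured 43.1, 36.4 and 38.2 CPM in control and 22.1, 14.6 and 18.5 CPM in Acly M-KO libraries at 3 h, and 211, 232 and 254 CPM and 168, 165 and 173 CPM at 24 h. It was lower in the Acly M-KO at both times and less so at 24 h (difference 0.64 ± 0.14, adjusted p = 0.0095). Nos2, the inducible nitric oxide synthase, measured 406, 361 and 393 CPM in control and 518, 545 and 509.5 CPM in Acly M-KO libraries at 3 h, and 485, 518 and 479.7 CPM and 978, 895 and 895 CPM at 24 h, so that its excess in the Acly M-KO was larger at 24 h (0.44 and 0.90). Tarm1, an activating receptor of myeloid cells, likewise went from 0.43 to 0.91, and Mefv, which encodes pyrin, from -0.92 to -0.39. Mefv kept its call in 2 of the 12 fits that left out 1 library. Sgk1, a kinase of the AKT relatives, went from 1.21 to 0.36, and Abcg3, a transporter, from -0.52 to -1.59. For Efcab6, a calcium-binding protein, 2 of the 3 control libraries at 3 h held no count (0.689, 1.03 and 0.162 CPM in the Acly M-KO), so that its fold change depends on the fit: the difference ranged from -5.35 to -2.57 when 1 library was left out, and its call was lost in 9 of the 12 fits.

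In glycolysis, 7 of 18 genes (38.9%) had a time-dependent effect, against 9.44% of all genes tested. Pfkfb3, which makes the activator fructose 2,6-bisphosphate, measured 229, 205 and 208 CPM in control and 224, 157 and 179 CPM in Acly M-KO libraries at 3 h, and 168, 179 and 185 and 255, 229.5 and 251 CPM at 24 h, with a higher effect at 24 h (-0.20 and 0.46). Hk2, the inducible hexokinase, also had a higher effect at 24 h (-0.46 and -0.16). The opposite was seen for Aldoa, Pdk1, Pfkl, Pfkp and Pkm. Of these, Pfkl, the liver-type phosphofructokinase, measured 50.7, 47.7 and 48.4 CPM in control and 29.7, 35.7 and 32.3 CPM in Acly M-KO libraries at 24 h (-0.08 and -0.59). Pdk1, which inhibits pyruvate dehydrogenase, went from -0.14 to -0.72, and Pkm, the pyruvate kinase of macrophages, from 0.24 to -0.12. Medians of the list were -0.07 and -0.18.

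In the other lists the share of genes with a time-dependent effect lay between 6.45% and 23.1%, against 9.44% of all genes tested. The respiratory chain had the lowest, with Sdhc and Uqcrq among 31 (1 call with all 13 libraries), and the call of Sdhc was lost in 9 of the 12 fits that left out 1 library. Of 27 NF-κB feedback genes, 4 had such an effect (1 with all 13 libraries): Socs3, which restrains cytokine receptors (0.17 and 0.56), and Tnip3 (-0.40 and 0.07) had a higher effect at 24 h, and Dusp4 and Nfkbiz, an inducible coactivator (0.53 and 0.10), a lower one. Among 25 immediate early factors, Jun went from 0.34 to -0.11, Jund from 0.42 to 0.02, Maff from 0.44 to -0.04 and Batf from -0.40 to 0.19. The call of Maff was lost in 7 of the 12 fits that left out 1 library. Ptger4, a receptor for prostaglandin E2, was level at 3 h and lower in the Acly M-KO at 24 h (10.04, 9.59 and 9.57 CPM in control and 6.49, 5.87 and 5.99 CPM in Acly M-KO libraries, 0.10 and -0.66). The arginine carrier Slc7a2 showed the opposite (-0.08 and 0.51).

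In the lysosome list, 5 of 25 genes had a time-dependent effect (3 with all 13 libraries), with Atp6v0d2, a subunit of the proton pump, going from -0.36 to 0.31 and the hydrolases Ctsd (0.22 and -0.12) and Glb1 (0.24 and -0.09) the other way. Chaperones of the endoplasmic reticulum had 3 of 17, Dnajb9 (-0.15 and 0.39), Manf (-0.21 and 0.10) and Sdf2l1 (0.37 and -0.19). In the matrix and adhesion list these were 4 of 30 (9 with no filter on low counts), with Vcan, Mmp19 (-0.65 and -0.08), Thbs1 (-0.34 and 0.09) and Itga6 (0.10 and -0.30). The NRF2 list had 3 of 13: Slc7a11, Gsta3 and the catalase gene Cat (0.54 and 0.11). From the cell cycle list, Ccne1 (-0.08 and 0.57) and E2f1 (0.33 and -0.27), which act at the entry into S phase, moved in opposite directions.

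**Figure D5:**
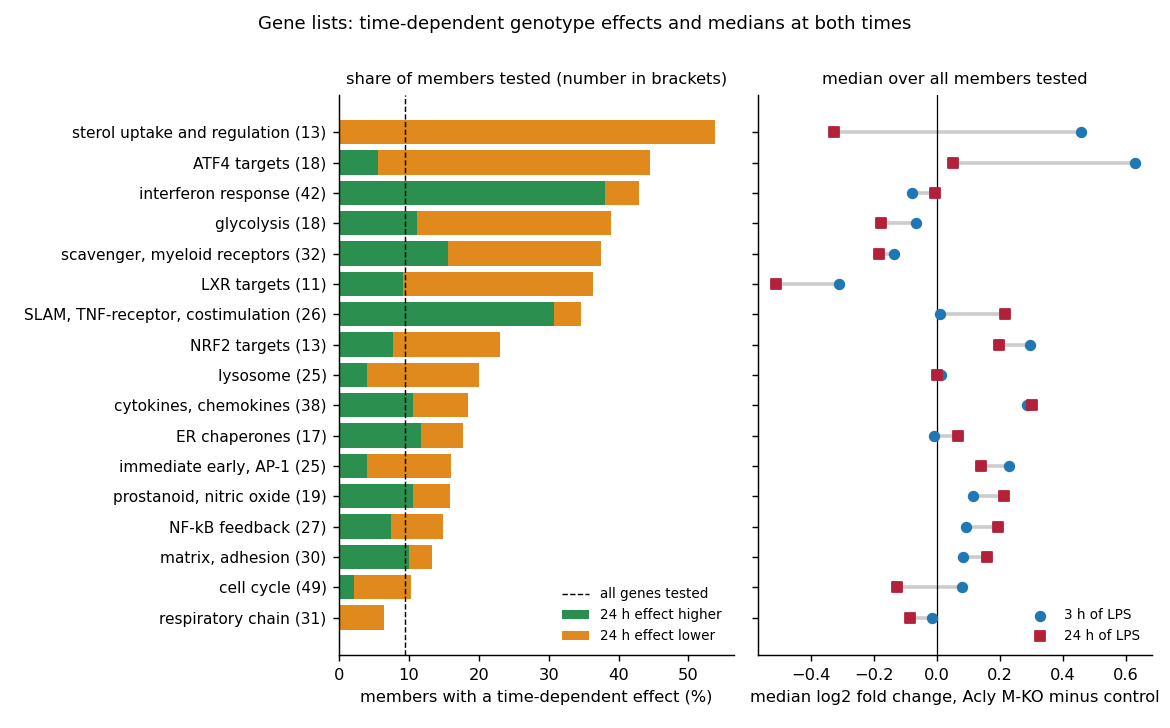
Left, the share of members tested (%) with a time-dependent effect in 17 gene lists, split by whether the effect was higher (green) or lower (orange) at 24 h, with the share of all genes tested (9.44%) as a dashed line; right, the median log2 fold change of all members tested at 3 h (circles) and 24 h (squares). Sterol uptake, ATF4 targets and interferon response have the largest shares, and the median moves most between the times in the first 2 of these.

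Most genes with a time-dependent effect had small effects at both times. Of the 966 genes outside the classes, 91 had an adjusted p under 0.05 with opposite signs at both times, 16 with the same sign, 394 at 3 h only and 346 at 24 h only, and 119 at neither time. The median absolute difference between the times among them was 0.44 on the log2 scale.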

How the data were processed

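RNA from 13 BMDM libraries was sequenced by the authors, who called bases with CASAVA 1.8.2, aligned reads with STAR 2.5.2b to mm10 (versions and build per the submitters' processing notes) and deposited raw, unnormalized counts per RefSeq transcript. The members and gene lists were chosen with earlier results of these data known.

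Of 35745 transcripts, 35628 received a symbol from RefSeq and GENCODE tables. The 117 without a symbol held 1.13% of counts. The transcript with the highest total was kept per symbol. Control 24 h replicate 1 was left out for its depth. With edgeR 4.0.16 (R 4.3.3), counts were filtered with filterByExpr, normalized by TMM and fitted by robust quasi-likelihood with 4 groups of 3 libraries, and the contrast was the genotype effect at 24 h minus that at 3 h. CPM are counts scaled by TMM library size, and 1 count stood for 0.0255 to 0.0861 CPM. Levels are not divided by length and are compared within a gene only. Standard errors were derived from each fold change and its F value. Library differences within a group exceeded counting noise.

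Named genes were Acly and Lyz2, up to 6 per direction in the reversed, appeared and faded classes and 3 of the resized by size of the difference (at least 1 CPM in a group, libraries apart, no unnamed transcripts), and up to 4 per list. The other reversed genes were added, as were members of lists named with their counts, genes overlapping a named gene, and genes said in the text to be chosen later. Values of some named genes are not reported here. Gene positions come from GENCODE M21 (GRCm38, the same build as mm10), and promoters from RefSeq (GRCm38.p6), where 9543 genes tested had one. Sterol (TCACNCCAC) and AP-1 (TGANTCA) motifs were also searched. Alternatives were all 13 libraries, DESeq2 1.42.0 and its size factors, other filters, no collapse to symbols, other fold thresholds, blocks and leaving out each library.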

Additional observations from a re-analysis of the deposited data

Results flagged for a closer look

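The effect of genotype differed between 24 h and 3 h in each of the genes named by the rule, by the test of the difference itself (adjusted p under 0.05 in edgeR's quasi-likelihood test). Apart from Acly and Lyz2, the rule took only genes called by this test, so for them this holds by construction. The values that follow are the log2 effect at 24 h minus that at 3 h, in the order of size. Among reversed genes, the effect at 24 h was higher by the following log2 values: Acpp 2.05, Slamf1 1.69, Adam33 1.40, Hilpda 1.38 and Mt2 1.01. In the same class, the effect at 24 h was lower by the following log2 values: 4930483K19Rik -2.30 (overlaps Lss), Mir5114 -2.15 (lies inside Scd2), Stard4 -1.59, Insig1 -1.48, Cenpi -1.43, Mid1ip1 -1.40, Plekhg3 -1.35, Aldoc -1.30, Aacs -1.28, Pcyt2 -1.19, Tfrc -1.19, Scarb1 -1.11 and C5ar1 -1.03. Among appeared genes, the effect at 24 h was higher by the following log2 values: Clcf1 1.91, Plcxd2 1.58, Mir6367 1.52, Mreg 1.24, Il17rd 1.23, Vcan 1.12 and Slc7a11 0.87. In the same class, the effect at 24 h was lower by the following log2 values: Cox7a1 -2.73, Cd300e -1.35, Atg9b -1.32, Ido2 -1.22, Trpm2 -1.12, Apoc2 -1.09, Mcm5 -0.97 and Mcm3 -0.71. Among faded genes, which did not pass the adjusted p at 24 h but may have a smaller effect there, the effect at 24 h was higher by the following log2 values: Vnn3 1.97, Tnfrsf9 1.92, Bbs1 1.59, Fam217b 1.53, Zbtb12 1.44, Kif1a 1.29 and S1pr1 0.96. In the same class, the effect at 24 h was lower by the following log2 values: Abhd15 -2.77, Gsta3 -2.44, H1f10 -2.28, Ccdc40 -2.13, Dusp8 -2.07, Mmp2 -1.96, Trib3 -1.67, Ctsk -1.46, Dusp4 -1.45, Phgdh -1.15 and Sesn2 -0.87. In genes whose effect kept its sign, the effect at 24 h was higher by the following log2 values: Cd38 0.64, Mefv 0.53, Tarm1 0.48 and Nos2 0.46. In the same class, the effect at 24 h was lower by the following log2 values: Efcab6 -3.17 (-5.35 to -2.57 when 1 library was left out), Abcg3 -1.07, Sgk1 -0.85, Osm -0.84, Acly -0.55 and Lyz2 -0.44. In genes below the fold threshold, the effect at 24 h was higher by the following log2 values: Il1rn 0.82, Atp6v0d2 0.67, Ccne1 0.66, Pfkfb3 0.66, Ccr1 0.65, Cxcl11 0.65, Batf 0.59, Slc7a2 0.59, Igtp 0.58, Mmp19 0.56, Dnajb9 0.54, Mx2 0.52, Gbp3 0.48, Cd86 0.47, Tnip3 0.47, Iigp1 0.45, Thbs1 0.44, Mylip 0.44, Cd40 0.42, Socs3 0.39 and Manf 0.31. In the same class, the effect at 24 h was lower by the following log2 values: Mthfd2 -0.95, Srebf1 -0.91, Ptger4 -0.76, Lpcat3 -0.69, Cxcl9 -0.65, E2f1 -0.60, Pdk1 -0.58, Sdf2l1 -0.56, Pfkl -0.51, Maff -0.48, Uqcrq -0.47, Jun -0.45, Cat -0.43, Nfkbiz -0.42, Itga6 -0.40, Jund -0.39, Pkm -0.36, Ctsd -0.34, Glb1 -0.32 and Sdhc -0.30.

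The library of control 24 h replicate 1, which is left out of every fit except the alternative with all 13 libraries, held at least 10 counts for 401 genes.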

How the results depend on the processing

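Because 1 count stood for up to 0.0861 CPM, levels near 1 CPM rest on few counts. The number of genes with a time-dependent effect was 1127 and lay between 777 and 1649 when each library was left out in turn, the highest without Acly M-KO 3 h replicate 1. Reversed genes, synthesis genes included, numbered 38 (29 to 38), appeared genes 31 (22 to 42), faded genes 66 (55 to 100, the highest without Acly M-KO 3 h replicate 1) and resized genes 16 (12 to 24). Acly kept its call in each of these fits, with differences from -0.61 to -0.47.

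DESeq2 gave 43 faded genes, testing with no filter on low counts gave 27 resized genes, and a log2 fold threshold of 1 gave 20 reversed, 9 appeared and 8 resized genes. Fewer genes pass a higher fold threshold by its construction, and for the other changes the cause was not tested. With all 13 libraries 871 genes had a time-dependent effect, with DESeq2 1040 and with no filter 1252, and the other counts of genes and classes stayed within 1.5 times. Calls in gene lists moved further for 5 lists with all 13 libraries, all to fewer calls, and for 2 with no filter, both to more.

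Deviations of same-numbered libraries correlated between -0.03 and 0.06 in 15 pairs, none over 0.1. Across time in the Acly M-KO, same-numbered pairs correlated at 0.059, 0.039 and 0.041, and the other pairs between -0.0345 and -0.00447. Within a genotype, 6 pairs across time matched by place in the library codes correlated between -0.007 and 0.075. The 12 other such pairs lay between -0.064 and 0.042. Whether the times share mice or cultures was not tested. With the replicate number as a block, 850 genes had a time-dependent effect, 768 of them shared with the 1127, and with a block inferred from the library codes 1356, with 1104 shared. Of 102 named genes, none changed sign in any setting. Their calls were kept in 78 under the replicate block, in 97 under the code block, in 94 with all 13 libraries, in 85 with DESeq2 (lost in Abhd15, Acpp, Atg9b, Bbs1, Ccdc40, Clcf1, Cox7a1, Dusp8, Efcab6, Fam217b, H1f10, Ido2, Kif1a, Mir6367, Mmp2, Tnfrsf9 and Zbtb12) and in 83 to 99 when 1 library was left out. Among named genes that lost their call in few of these fits, Abcg3 lost it without Acly M-KO 24 h replicate 1 or 3 (adjusted p up to 0.0902), Jund without Acly M-KO 3 h replicate 3 (0.0687), Acpp without Acly M-KO 3 h replicate 2 (0.0544), Uqcrq without replicate 3 of either genotype at 3 h (up to 0.059), Il17rd without Acly M-KO 24 h replicate 1 or control 24 h replicate 4 (up to 0.0724), and Pdk1 and Tnfrsf9 without Acly M-KO 24 h replicate 3 or control 24 h replicate 4 (up to 0.06 and 0.0779).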
